A study of Mus musculus with 4 samples.

Results

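The endothelial nuclei described here are 247 nuclei of the 15473 that passed limits on depth and quality, among 24494 barcodes deposited. They were chosen by measured values of RNA: at least 4 UMIs (counted RNA molecules) summed over 9 genes known from endothelium (Calcrl, Ptprb, Cyyr1, Adgrl4, Vwf, Egfl7, Tek, Pecam1 and Cdh5) and no UMI of Ptprc, the gene of the leukocyte antigen CD45. The limits were 500 to 25000 UMIs, at least 300 genes and a mitochondrial share of UMIs under 30%. The control library held 43 of these nuclei and the library labelled CKO held 204.

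The nuclei come from lung of male mice, taken 8 days after the animals were given bleomycin to injure the lung, and were profiled for RNA and open chromatin together. Both genotypes carried SftpcCreERT2, a tamoxifen-inducible Cre driven from the gene of surfactant protein C, and Rosa26mTmG, a reporter that turns green in cells where Cre has acted. The control had these alleles alone, and CKO had in addition IPF/F, a floxed gene of the prostaglandin I2 receptor (IP, encoded by Ptgir). The material was sorted as GFP-positive alveolar type 2 (AT2) cells, the epithelial cells that make surfactant, so endothelial nuclei are not the cells the sort or the Cre was aimed at, and how they came into the sorted material was not tested. There is 1 joint library per genotype, the number of mice in each is not given in the sources used here, and no difference between the libraries has a replicate check or a p-value. Intervals are exact 95% intervals for counting error only.

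Endothelial cells line blood and lymph vessels. In the alveolus the general capillary cells, marked by Gpihbp1, Plvap and Kit, and the aerocytes, marked by Car4, Ednrb and Prx, form the thin net across which gas is exchanged. VEGF receptors, the Tie and Notch receptors and the BMP receptors Acvrl1 and Bmpr2 keep vessels in shape, and lung endothelium also removes prostaglandins from the blood and converts angiotensin I through Ace.

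The endothelial nuclei of the control library had a median of 3464 UMIs, a median mitochondrial share of 18.8% and a median of 815 chromatin counts in peaks, against 1842 UMIs, 8.20% and 2338.5 peak counts in the library labelled CKO. Their summed RNA came to 185138 and 470855 nuclear-encoded UMIs, the total behind every CPM value below (UMIs scaled to the nuclear-encoded total, the usual CPM scale). Peak counts scaled in the same way to all peak counts of a class are called peak CPM. The libraries shared 193 barcode sequences, of which 7 belonged to an endothelial nucleus of one library, and no barcode was an endothelial nucleus in both. Nuclei of the same library without a UMI of Ptprc or of the 9 genes are called marker-free (6540 control, 5238 CKO), and nuclei with Ptprc and without the 9 genes are called leukocyte nuclei (280 and 1687). Ptgir had 0 UMIs in the endothelial nuclei of both libraries, where 3 counts would be 16.2 CPM in the control and 6.37 CPM in CKO, so RNA gives no check of its deletion there.

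Endothelial nuclei made up 0.586% of the nuclei kept in the control library (interval 0.424 to 0.788) and 2.51% in the library labelled CKO (2.18 to 2.87). With every nucleus thinned to 1000 UMIs and 877 and 947 shallower ones left out, the rule found 20 of 6467 control nuclei (0.309%, interval 0.189 to 0.477) and 139 of 7182 CKO nuclei (1.94%, interval 1.63 to 2.28). Leaving out 29 control and 143 CKO nuclei that also held markers of other cell types gave 0.191% and 0.750%. These nuclei are called mixed, or holding other markers, below. They had 4 or more UMIs of 15 epithelial genes outside the AT2 list, or 2 or more of any of 10 other-type lists. AT2 genes were not used in this step. At least 4 AT2 UMIs were held by 33 control and 160 CKO endothelial nuclei, more than were left out. Some of the nuclei kept therefore still held AT2 RNA. The share was thus larger in the CKO library by more than counting error, at full and at equal depth, in 1 library of each kind. The sum over the 9 genes ranged from 4 to 35 UMIs in the control, with a median of 14, and from 4 to 125 in CKO, with a median of 17. Just inside the limit, at a sum of 4, were 5 control and 10 CKO nuclei, and just outside it, at a sum of 3, were 22 and 21. A further 10 and 60 nuclei reached the sum but held Ptprc and are not members.

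The 9 genes were seldom met singly. At least 3 of them were present in 36 of 43 control nuclei and in 191 of 204 CKO nuclei. Calcrl, the receptor for adrenomedullin and CGRP, had UMIs in 35 control and 191 CKO nuclei. The phosphatase gene Ptprb had UMIs in 29 and 148, and Pecam1, encoding the junction protein CD31, in 30 and 129. On the CPM scale the 9 genes had a median of 6425 per nucleus in the control (312 to 40764) and of 10763 in CKO (289 to 45128). These values belong to the rule and describe the choice.

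Genes that the rule did not use were checked against marker-free nuclei. Of 35 further endothelial genes, 31 reached 20 UMIs in the CKO endothelial nuclei, and 30 of these were 2-fold or more above marker-free nuclei, with a median log2 ratio of 6.91. Over all 4668 genes with 20 UMIs there, 13.1% were 2-fold or more higher and the median log2 ratio was 0.02. In the control, 11 of the 12 that reached 20 UMIs were 2-fold or more higher, with a median log2 ratio of 6.42, against 11.5% of 1842 genes and a median of 0.10. Mecom, a transcription factor gene also read in the epithelial nuclei, was the exception in both, at 2350 CPM in control and 996 CPM in CKO endothelial nuclei against 3185 and 2415 CPM in marker-free nuclei.

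Genes were ranked over marker-free nuclei in the CKO library by the lower bound of their ratio, with the 9 rule genes left out beforehand. The 12 highest were Ldb2, Shank3, Myrip, Ccdc85a, Hpgd, Arap3, Ace, Kit, Ccm2l, Clec14a, Emcn and Ackr3. The cofactor gene Ldb2 had 934 CPM in control and 1130 CPM in CKO endothelial nuclei, against 1.29 and 2.79 CPM in marker-free nuclei. Hpgd, which encodes the enzyme that breaks down prostaglandins, had 124 and 395 CPM against 0.671 and 2.25 CPM. Emcn, encoding the surface mucin endomucin, had 21.6 and 106 CPM against 0.192 and 0.477 CPM. The bound that ranked these genes was lowest at 6.63 among the 12, on the log2 scale in CKO.

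**Figure D1:**
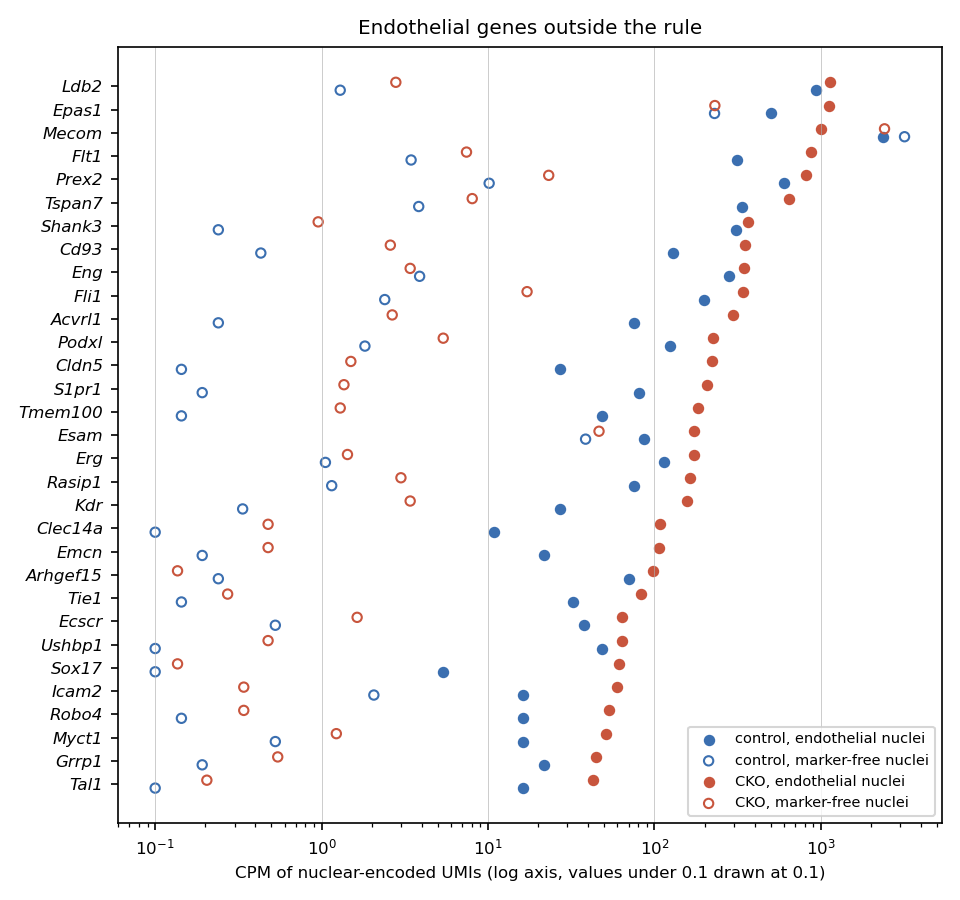
Each row is an endothelial gene outside the rule with at least 20 UMIs, ordered by its level in CKO endothelial nuclei, and the x axis gives CPM on a log scale. Filled points are endothelial nuclei and open points marker-free nuclei, in blue for the control and in red for the library labelled CKO. All genes but Mecom stand higher in endothelial nuclei of both libraries, and Epas1 and Esam have marker-free levels above 30 CPM.

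Epithelial RNA was present in these nuclei too. The 12 AT2 genes summed to 11586 CPM in control and 7009 CPM in CKO endothelial nuclei, against 13310 and 13678 CPM in marker-free nuclei and 9650 and 8694 CPM in leukocyte nuclei. Sftpb, encoding surfactant protein B, had 2495 and 1873 CPM, and Sftpc, the gene that drives the Cre, had 59.4 and 29.7 CPM. Per nucleus the AT2 genes had a median of 6765 CPM in the control and 4448 CPM in CKO, next to 6030 and 6218 in leukocyte nuclei. At least 4 UMIs of 15 other epithelial genes were held by 25 of 43 control and 84 of 204 CKO endothelial nuclei. Among leukocyte nuclei, 122 of 280 and 832 of 1687 held as many. In the control, 17 of 18 endothelial nuclei under 5000 CPM of the rule genes held as many. These 18 had a median of 7326.5 UMIs and an AT2 sum of 13457 CPM, near that of marker-free nuclei. The other 25 had 1956 UMIs and 7084 CPM, with 8 holding as many. In CKO the AT2 sums were 7756 CPM in 49 nuclei and 6500 CPM in 155. Deep nuclei weigh more in CPM sums, so control sums lean on nuclei rich in AT2 RNA. Doublets were not removed, and whether this RNA is free RNA or another nucleus in the droplet was not tested.

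**Figure D2:**
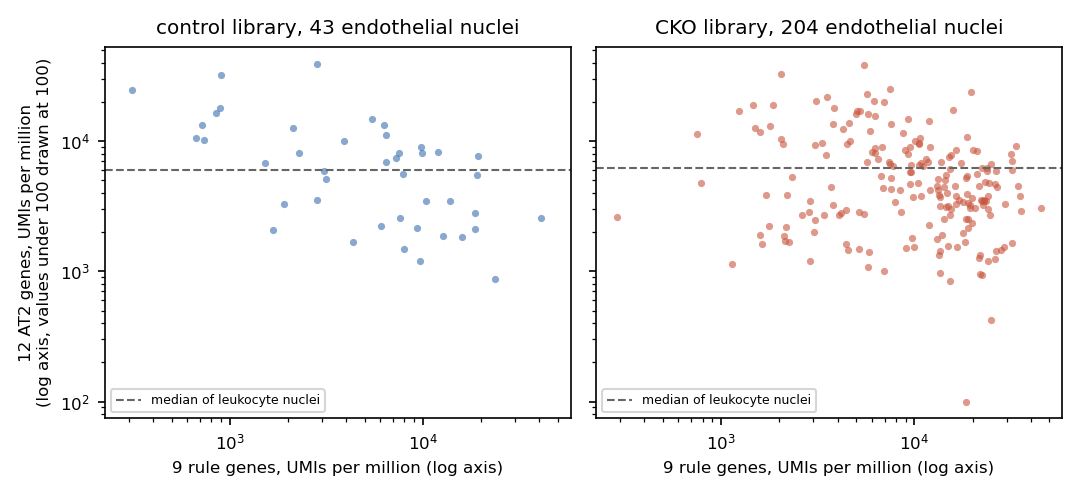
Each point is an endothelial nucleus, with the CPM of the 9 rule genes on the x axis and that of the 12 AT2 genes on the y axis, both on log scales. The dashed line is the median AT2 value of leukocyte nuclei of the same library, 6030 in the control and 6218 in CKO. Points lie on both sides of the line, and 18 of 43 control nuclei against 49 of 204 CKO nuclei have under 5000 CPM of the rule genes.

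Markers of other cell types were mostly higher in the endothelial nuclei of the CKO library, and their part in the ratios between libraries was not tested. The 9 airway genes summed to 103 CPM in the control and 1013 CPM in CKO, and to 283 and 1720 CPM in marker-free nuclei. In the control, no UMI was seen of 5 mesothelial genes, and 3 were seen of 12 pericyte and smooth muscle genes. The 7 neutrophil genes summed to 5.40 CPM in the control and 189 CPM in CKO endothelial nuclei, and to 3.93 and 247 CPM in marker-free nuclei. The 12 fibroblast genes summed to 124 and 395 CPM, below the 301 and 672 CPM of marker-free nuclei. The 13 macrophage and monocyte genes summed to 75.6 and 355 CPM, above the 55.8 and 181 CPM of marker-free and below the 633 and 954 CPM of leukocyte nuclei, with Adgre1 and Ear2 at 0 in both libraries. The 7 dendritic cell genes summed to 64.8 and 130 CPM, above the 10.4 and 20.3 CPM of marker-free nuclei. The 12 T and NK cell genes summed to 86.4 and 17 CPM, with 14 of the 16 control UMIs in 1 nucleus, and Cd3d, Ncr1, Klrb1c, Nkg7 and Gzma at 0 in both.

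Open chromatin of the same barcodes was not used by the rule. In the library labelled CKO, peaks within 1000 bases of the starts of the 35 endothelial genes held 572 counts in endothelial nuclei, or 866 peak CPM, against 270 peak CPM in marker-free nuclei (log2 ratio 1.68, interval 1.55 to 1.80). A peak lay at 23 of the genes, 17 of them were 2-fold or more higher in endothelial nuclei and 19 had an interval above 0. Over all 5335 peaks with at least 30 counts in these nuclei, 10.6% were 2-fold or more higher. That share counts single peaks. The genes had no such limit of counts, with 6 at Sox17 and 8 at Tmem100, and some had 2 peaks summed, so the shares are not like for like. The peaks at 12 AT2 genes went the other way, at 253 against 348 peak CPM (log2 ratio -0.46, interval -0.69 to -0.24).

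The control library gave 55 counts at endothelial genes, 468 peak CPM against 317 (log2 ratio 0.56, interval 0.15 to 0.94), and this ratio was -0.75 with a mitochondrial limit of 20% (interval -1.81 to 0.13) and 2.48 without nuclei that held other markers (interval 1.61 to 3.23). The peaks at the AT2 genes held 41 counts in control endothelial nuclei, 349 peak CPM against 398 in marker-free nuclei. Their log2 ratio was -0.19 (interval -0.67 to 0.25), so no clear loss of AT2 signal was seen in the control. The 25 nuclei at or over 5000 CPM of the rule genes had 447 peak CPM there, from 19 counts, and the other 18 had 294, from 22. Of the control peaks, 36 had at least 30 counts in the 43 endothelial nuclei, and 50% of these were 2-fold or more higher than in marker-free nuclei. The authors called peaks in each library apart, and the control set has no peak within 1000 bases of Tie1, Clec14a or Ptprb. Chromatin was therefore not compared between the libraries.

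**Figure D3:**
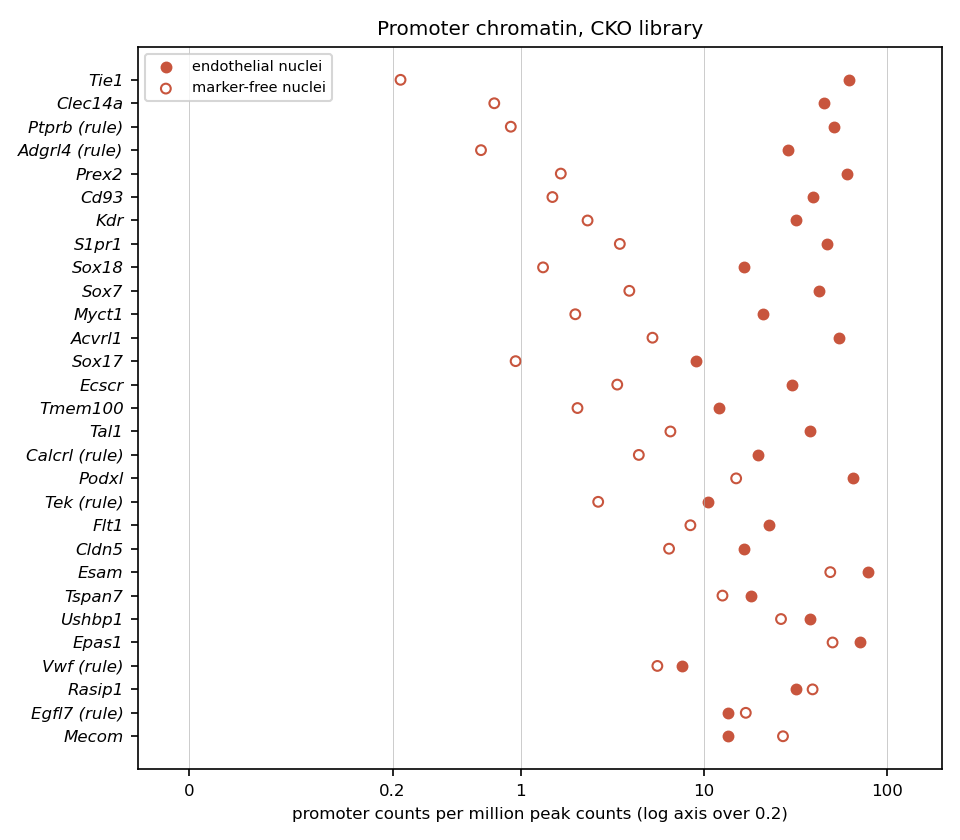
Each row is an endothelial gene with a peak within 1000 bases of its start in the library labelled CKO, genes of the rule included, ordered by the ratio of endothelial to marker-free nuclei. The x axis gives promoter counts as peak CPM on a log scale over 0.2. The ratio is widest at Tie1 (62.0 against 0.221), and Mecom stands lower in endothelial nuclei (13.6 against 27.1).

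The promoters of Tie1, Clec14a and Kdr are printed because they had the highest ratios, by lower bound, among genes with at least 20 counts and a RefSeq promoter under a peak. The 250 bases before each RefSeq start are given on the gene's strand (GRCm38.p6, all on the minus strand), with capitals for AGGAAG or its reverse complement CTTCCT, a form of the core that ETS factors such as Erg and Fli1 bind.
Tie1, chr4:118489850-118490099: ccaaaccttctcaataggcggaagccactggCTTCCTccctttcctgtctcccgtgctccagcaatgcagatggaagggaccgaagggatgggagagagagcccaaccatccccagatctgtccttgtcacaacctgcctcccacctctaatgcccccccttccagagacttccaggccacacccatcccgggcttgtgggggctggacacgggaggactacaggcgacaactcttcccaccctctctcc
Clec14a, chr12:58269259-58269508: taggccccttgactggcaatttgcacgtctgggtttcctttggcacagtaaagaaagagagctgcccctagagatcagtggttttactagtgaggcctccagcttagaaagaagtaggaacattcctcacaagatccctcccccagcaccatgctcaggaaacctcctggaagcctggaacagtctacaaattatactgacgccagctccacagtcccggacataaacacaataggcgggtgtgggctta
Kdr, chr5:75978456-75978705: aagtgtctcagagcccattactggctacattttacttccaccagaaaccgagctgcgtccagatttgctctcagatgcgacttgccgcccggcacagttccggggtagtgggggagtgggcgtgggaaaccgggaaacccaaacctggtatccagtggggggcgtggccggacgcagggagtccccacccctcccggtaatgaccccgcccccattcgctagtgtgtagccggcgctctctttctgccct

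The Tie1 peak spans chr4:118489492-118490410 and had 41 counts in CKO endothelial nuclei (62.0 peak CPM) against 4 in marker-free nuclei (0.221 peak CPM). Tie1 encodes an endothelial receptor tyrosine kinase. The Clec14a peak had 30 counts (45.4 peak CPM) against 13 (0.719), and the Kdr peak 21 (31.8) against 42 (2.32). The sequence AGGAAG was found, on either strand, in the 250 bases before the start of Tie1 and not in those of Clec14a and Kdr. It was in 12 of the 22 endothelial genes with a RefSeq promoter (54.5%) and in 29.5% of 32851 promoters of that length. AGATAA, a form of the GATA factor site, was in 3 of the 22 (13.6%) and in 9.99% of all promoters.

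Of the 6 peaks highest over marker-free nuclei in the CKO library, the Tie1 promoter was the single one within 1000 bases of a gene start. The others lay at chr6:31642319-31643219 (44 counts against 4), chr6:52792129-52793031 inside Jazf1 (41 against 4), chr14:25401454-25402259 inside Zmiz1os1 (40 against 4), chr13:37446502-37447425 (39 against 4) and chr13:42565176-42566113 (33 against 4). In the control the highest 6 were of another kind, with wide signal in all nuclei: the second, at chr17:39843032-39843772 beside Gm26917, had 1890 peak CPM in endothelial and 655 peak CPM in marker-free nuclei.

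Subtype genes were spread over different nuclei. Genes over 10 CPM in marker-free nuclei were left out of these lists, a choice made after the values were seen. With the other 7 general capillary genes, 16 of 43 control nuclei (37.2%, interval 23 to 53.3) and 92 of 204 CKO nuclei (45.1%, interval 38.1 to 52.2) held at least 2 UMIs, against 0.031% and 0.038% of marker-free nuclei. Aerocyte genes reached 2 UMIs in 6 control (14%) and 30 CKO nuclei (14.7%), arterial genes in 8 (18.6%) and 49 (24.0%), venous genes in 4 (9.30%) and 17 (8.33%), and lymphatic genes in 1 (2.33%) and 32 (15.7%). The libraries differ in depth. With each nucleus thinned to 1000 UMIs, leaving 38 control and 173 CKO nuclei, general capillary genes reached 2 UMIs in 2 (5.26%, interval 0.644 to 17.7) and 38 (22%, interval 16.0 to 28.9), and lymphatic genes in 0, which allows a share of up to 9.25%, and 10 (5.78%, interval 2.81 to 10.4). All 5 pairs of intervals overlapped after thinning, the general capillary pair only from 16.0 to 17.7, and overlap is not a test of a difference. Thinning was 1 random draw over all UMIs, mitochondrial ones included.

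**Figure D4:**
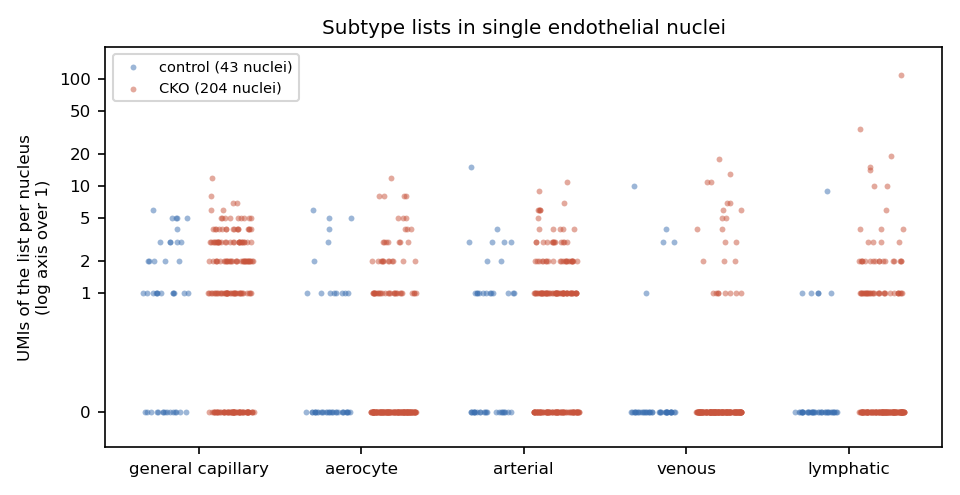
Each point is an endothelial nucleus and the y axis its UMIs of the subtype list named below (log scale over 1), control in blue and the library labelled CKO in red. General capillary UMIs are spread over many nuclei, up to 12 in 1 nucleus, while lymphatic UMIs are high in few nuclei, with 110 in the highest.

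The lists were not exclusive: general capillary and aerocyte genes both reached 2 UMIs in 2 control and 16 CKO nuclei, and general capillary and arterial genes in 5 and 28. Lymphatic genes were the most concentrated. Of their 307 UMIs in CKO, 110 were in 1 nucleus and 192 in 5, and 8 nuclei held at least 5. The highest nucleus had 73 UMIs of Reln, 17 of Mmrn1, 8 of Ccl21a, 4 of Flt4, 4 of Lyve1 and 3 of Prox1, the transcription factor of lymphatic identity, beside 31 UMIs of the 9 rule genes. In the control, 1 nucleus held 9 lymphatic UMIs, among them 2 of Prox1 and 2 of Mmrn1, together with 166 AT2 UMIs in a total of 15250. Lyve1 was not limited to such nuclei, with 84 UMIs in 50 CKO nuclei and at most 4 in 1.

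Venous genes were also held by few nuclei. Slc6a2, the noradrenaline transporter, had 1 UMI in the control and 57 in CKO, the latter in 13 nuclei and up to 10 in 1. Selp, encoding P-selectin, had 13 UMIs in 3 control nuclei and 39 in 11 CKO nuclei, of which 17 were in 1. Of the 10 CKO nuclei with at least 5 venous UMIs, the 2 with the most Vwf (49 and 15 UMIs) also had 7 and 8 of Slc6a2. Aerocyte genes reached 5 UMIs in 3 control and 8 CKO nuclei, the highest CKO nucleus with 5 of Prx, 3 of Ednrb and 2 of Car4.

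Between the libraries, 5485 genes had at least 20 UMIs over the endothelial nuclei of both. Of these, 1227 (22.4%) were 2-fold or more higher in the library labelled CKO and 289 (5.27%) 2-fold or more lower. The limit is on the sum of both libraries, and CKO gives 470855 UMIs against 185138. A gene rare in the control can therefore pass through CKO alone, also in the lists below. With a limit of 50 UMIs, 424 of 2822 genes were higher and 163 lower, and with nuclei thinned to 1000 UMIs 404 and 145 of 2107. The median log2 ratio of all 5485 was 0.36, and that of the same genes was 0.44 in marker-free and 0.36 in leukocyte nuclei, so a shift of this kind was present in all 3 classes. Ratios also moved with the length of the gene in every class: over the 1341 shortest genes, spanning under 22.5 kb, the median log2 ratio was 0.55 in endothelial, 0.67 in marker-free and 0.67 in leukocyte nuclei, and over the 1342 longest, spanning more than 101 kb, it was 0.12, 0.15 and 0.07. The part of gene span, mitochondrial share and depth in the ratios was not tested.

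The rule genes themselves, which chose the nuclei, summed to 3997 CPM in control and 9398 CPM in CKO endothelial nuclei, given as a description. The 30 other endothelial genes at or under 10 CPM in marker-free nuclei summed to 3235 and 6246 CPM (0.95, interval 0.82 to 1.08). AT2 genes moved the other way, with a log2 ratio of -0.73 (interval -0.80 to -0.65), while their ratio was 0.04 in marker-free and -0.15 in leukocyte nuclei. Per UMI, endothelial nuclei of the control held less endothelial and more AT2 RNA. Lists and genes of endothelial function are therefore also given per UMI of those 30 genes, a scale added after the values were seen, on which the control has 599 UMIs and CKO 2941. A gene or list that shares members with the 30 is set against the rest of them, so its total is smaller. Ldb2 alone gave 173 of the 599 control UMIs and 532 of the 2941 CKO UMIs. Its own log2 ratio on this scale was -0.88. Ratios of other genes with Ldb2 left out of the total were not calculated, so intervals that end close to 0 may depend on it. Of 71 genes put on this scale, 20 had an interval above 0 and a median span of 23.4 kb. Another 7 had an interval below 0 and a median span of 67.2 kb, against 25.1 kb for all 71. The part of gene span in these ratios was not tested. The 71 include the rule genes that chose the nuclei, with Calcrl, Vwf and Egfl7 among the 20 and Pecam1 among the 7. Some of the 20 were rare in the control, such as Reln (0 and 127 UMIs), Plat (1 and 40) and Slc6a2 (1 and 57). Sox17 (1 and 29), also rare there, had an interval across 0. The share of all genes with an interval clear of 0 on this scale was not counted, so these counts have no background.

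General capillary genes had a higher CPM sum in CKO, and nearly the same sum per endothelial UMI. The 10 genes summed to 1523 CPM in the control and 2292 CPM in CKO (log2 ratio 0.59, interval 0.40 to 0.78). Of 8 measured genes 3 were 2-fold or more higher and none lower, beside 22.4% and 5.27% of all genes. Per endothelial UMI the 7 genes low in marker-free nuclei had a log2 ratio of 0.10 (interval -0.28 to 0.50). Without the nuclei that held other markers the ratio of the 10 genes was -0.10 (interval -0.44 to 0.25). Gpihbp1, which anchors lipoprotein lipase, had 3 and 36 UMIs, Kit 25 and 87, and Hmcn1 112 and 257, the last at 605 and 546 CPM. Lpl, the lipase itself, had 27.0 CPM in the control, in 4 nuclei, and 350 CPM in CKO, in 77 nuclei (log2 ratio 3.70, interval 2.45 to 5.34), and its ratio was 1.87 in marker-free nuclei.

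The 9 aerocyte genes summed to 427 and 886 CPM (log2 ratio 1.05, interval 0.70 to 1.42), with Kitl, encoding the ligand of Kit, at 248 and 580 CPM and Prx at 103 and 136 CPM. Per endothelial UMI the 8 genes without Kitl had a log2 ratio of -0.17 (interval -0.72 to 0.42), and without the nuclei that held other markers the 9 genes had -0.77 (interval -1.33 to -0.18), a turn of sign. Arterial genes summed to 351 and 735 CPM (1.07, interval 0.68 to 1.47) and had -0.04 per endothelial UMI (interval -0.50 to 0.45). Venous genes summed to 605 and 684 CPM (0.18, interval -0.14 to 0.50) and had 0.18 per endothelial UMI (interval -0.50 to 0.93). Lymphatic genes summed to 124 and 739 CPM (2.57, interval 1.96 to 3.25) and had 2.16 per endothelial UMI (interval 1.39 to 3.05), with most of their UMIs in the few nuclei described above. Reln, the secreted protein reelin, had no UMI in the control and 127 UMIs in 8 CKO nuclei, at least 16.6-fold higher if the control group is set to 3 counts in all. Without the nucleus that held 73 of these UMIs its log2 bound was 2.82.

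VEGF receptor genes were higher in CKO. Flt1, the decoy-type receptor VEGFR1, had 313 CPM in control and 873 CPM in CKO endothelial nuclei (log2 ratio 1.48, interval 1.08 to 1.90). Kdr, the main signalling receptor VEGFR2, had 5 UMIs in the control and 74 in CKO, 27.0 and 157 CPM (2.54, interval 1.25 to 4.21). Both had an interval above 0 per endothelial UMI too, at 0.60 (0.20 to 1.02) and 1.62 (0.33 to 3.28). The co-receptor Nrp1 stood at 594 and 682 CPM (0.20, interval -0.12 to 0.52) and the ligand Vegfa at 167 and 200 CPM, its level in marker-free nuclei being 165 and 203 CPM. In all 3 of 7 measured genes of this list were 2-fold or more higher and none lower, beside 22.4% and 5.27% of all genes. The ratio of Kdr in marker-free nuclei was 3.34.

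The BMP genes had ratios that differed from gene to gene. Acvrl1, the type 1 receptor ALK1, had 75.6 CPM in the control and 295 CPM in CKO (log2 ratio 1.96, interval 1.17 to 2.87), and per endothelial UMI 1.05 (0.26 to 1.96). Its co-receptor Eng had 281 and 346 CPM (0.30, interval -0.16 to 0.78), and per endothelial UMI -0.70 (-1.15 to -0.22). The ligand Bmp6 had 340 and 429 CPM, and per endothelial UMI -0.61 (-1.03 to -0.18). Bmpr2, the type 2 receptor, had 837 and 1408 CPM, and the inhibitory Smad6, a target of the pathway, 124 and 380 CPM (1.61, interval 0.98 to 2.31). Of 17 measured genes of the list 9 were 2-fold or more higher and 0 lower, beside 22.4% and 5.27% of all genes. Their median log2 ratio was 1.00. Per endothelial UMI the sign turned: Bmp6, Eng, Acvrl1 and Id3, the 4 genes low in marker-free nuclei, had together -0.29 (interval -0.57 to -0.00438).

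Among transcription factors, 9 of 23 measured genes were 2-fold or more higher and 1, Mecom, lower, with a median of 0.85, beside 22.4% and 5.27% of all genes and a median of 0.36. Epas1, encoding the hypoxia factor HIF-2 alpha, had 502 and 1117 CPM (log2 ratio 1.15, interval 0.83 to 1.49), and its marker-free level was 230 and 231 CPM. The flow-responsive Klf4 had 140 and 253 CPM (0.85, interval 0.23 to 1.52), where marker-free nuclei had 107 and 53.8 CPM, a log2 ratio of -0.995. Tcf4 had 713 and 1363 CPM (0.94, interval 0.66 to 1.22), with -0.16 in marker-free nuclei. Gata2 had 3 UMIs in the control and 52 in CKO, and per endothelial UMI a log2 ratio of 1.82 (0.19 to 4.14), while the ETS factor Erg had 113 and 172 CPM (0.60, interval -0.11 to 1.37).

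**Figure D5:**
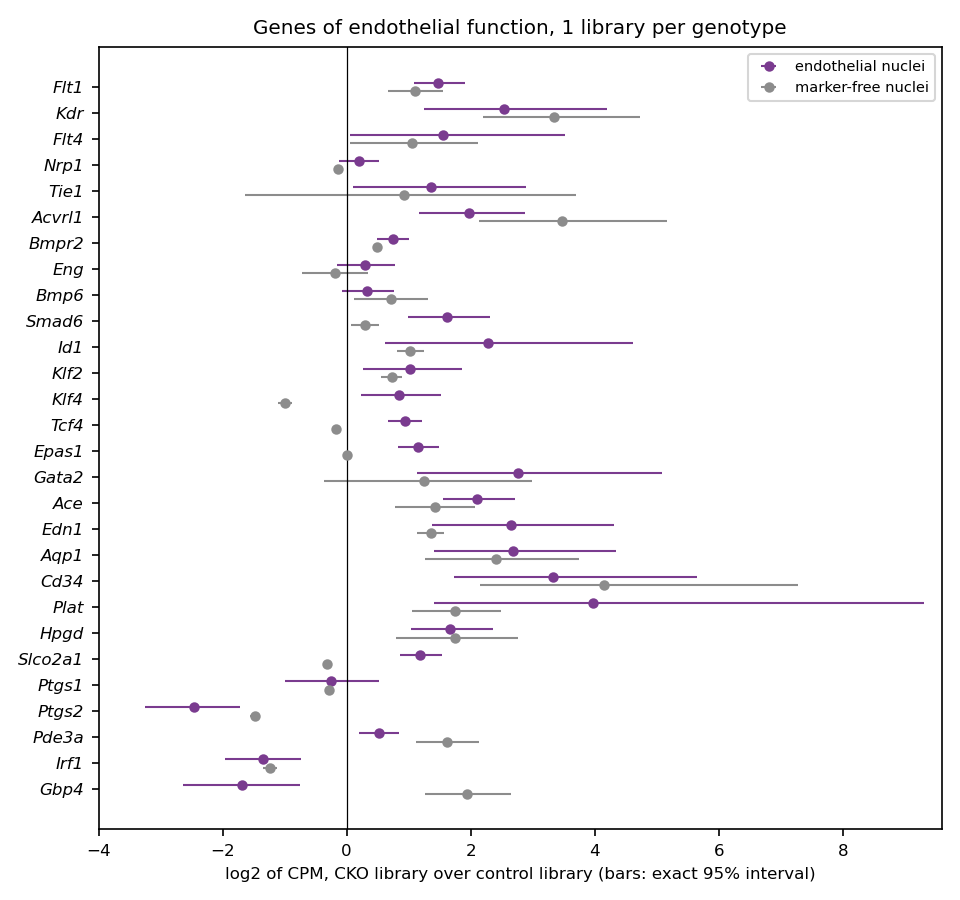
The x axis is the log2 ratio of CPM in the library labelled CKO over the control, with bars for the exact 95% interval, in endothelial (purple) and marker-free (grey) nuclei, for genes of endothelial function in rows. Most endothelial values lie above 0, but the genes drawn were picked after their values were seen. The median log2 ratio of all 5485 genes in endothelial nuclei was 0.36. Klf4, Tcf4 and Slco2a1 are above 0 in endothelial and below 0 in marker-free nuclei, and Gbp4 is the reverse.

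Genes of vascular tone mostly had a higher CPM in CKO. Of 10 measured genes 7 were 2-fold or more higher in CKO and none lower, beside 22.4% and 5.27% of all genes. Their median log2 ratio was 1.76. Per endothelial UMI the 9 genes low in marker-free nuclei had 1.18 (interval 0.71 to 1.69). Only 3 of these 9 were measured, and Ace (307) and Aqp1 (82) gave most of the 435 CKO UMIs. The third, Ednrb, had 1 UMI in the control and 19 in CKO, with an interval across 0 per endothelial UMI (-0.70 to 7.33). Ace, the angiotensin-converting enzyme, had 28 UMIs in 15 control nuclei and 307 in 129 CKO nuclei, 151 and 652 CPM (2.11, interval 1.55 to 2.72), and per endothelial UMI 1.16 (0.60 to 1.77). The water channel gene Aqp1 had 27.0 and 174 CPM (2.69, interval 1.41 to 4.35). Edn1, encoding endothelin 1, had 27.0 and 170 CPM (2.65, interval 1.37 to 4.31), with 1.35 in marker-free nuclei. Ece1, which cuts the endothelin precursor, had 200 and 231 CPM (0.21, interval -0.34 to 0.79).

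The prostaglandin list held genes with ratios on both sides of 0. Hpgd had 124 CPM in the control and 395 CPM in CKO (log2 ratio 1.67, interval 1.04 to 2.36), and per endothelial UMI 0.72 (0.09 to 1.41). The prostaglandin transporter gene Slco2a1 had 459 and 1047 CPM (1.19, interval 0.85 to 1.54), where marker-free nuclei had 320 and 256 CPM (-0.32). Ptgs2, encoding the inducible cyclooxygenase COX-2, had 50 UMIs in 9 control nuclei and 23 in 17 CKO nuclei, 270 and 48.8 CPM (-2.47, interval -3.25 to -1.73), and marker-free nuclei had 283 and 102 CPM. Ptgs1 stood at 124 and 104 CPM. Of 6 measured genes 2 were 2-fold or more higher and 1 lower, beside 22.4% and 5.27% of all genes, and Ptgds, Ptgir, Ptger2, Ptgfr and Ptgdr were at 0 in both libraries.

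Downstream of cyclic AMP, Pde3a, a phosphodiesterase gene of vessels, had 556 and 796 CPM (log2 ratio 0.52, interval 0.20 to 0.85), against 2.35 and 7.22 CPM in marker-free nuclei, and per endothelial UMI -0.43 (-0.75 to -0.10). Pde4d and Pde7b were 2-fold or more lower, at 4397 and 1584 CPM and at 924 and 251 CPM, and both were also lower in marker-free nuclei (4966 and 3361 CPM, 914 and 484 CPM). Of the 13 measured genes none was 2-fold or more higher and 2 were lower, beside 22.4% and 5.27% of all genes. The exchange factor gene Rapgef4, encoding EPAC2, had 265 and 231 CPM.

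Interferon-type genes had a lower sum in CKO, at 1237 and 926 CPM for 18 genes (log2 ratio -0.42, interval -0.65 to -0.18). The 4 genes low in marker-free nuclei had a log2 ratio of -1.21 (interval -1.97 to -0.45) on the CPM scale and -2.16 (-2.92 to -1.39) per endothelial UMI. Of the 30 control and 33 CKO UMIs of these 4 genes most were of Gbp4, a guanylate-binding protein gene, with 24 UMIs in 12 of 43 control nuclei and 19 in 14 of 204 CKO nuclei, 130 and 40.4 CPM (-1.68, interval -2.63 to -0.75). In marker-free nuclei Gbp4 went the other way, from 1.25 to 4.77 CPM. Irf1 had 254 and 99.8 CPM (-1.35, interval -1.96 to -0.73), and 122 and 52.1 CPM in marker-free nuclei. Over the whole list of 18 genes, 1 of 11 measured was 2-fold or more higher and 3 lower, beside 22.4% and 5.27% of all genes.

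Genes of the AP-1 transcription factor were lower in CKO in each class. Fosb had 1096 and 384 CPM in endothelial nuclei (log2 ratio -1.51, interval -1.81 to -1.22) and 1243 and 440 CPM in marker-free nuclei, and Jun had 864 and 353 CPM and 756 and 361 CPM. Of 7 measured genes 3 were 2-fold or more lower and none higher, beside 5.27% and 22.4% of all genes. The sum had a log2 ratio of -1.03 in endothelial, -0.87 in marker-free and -0.78 in leukocyte nuclei. Without the nuclei that held other markers the ratio of the sum in endothelial nuclei was 0.49 (interval -0.17 to 1.22).

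Among adhesion, junction and clotting genes several were rare in the control. Cd34, a sialomucin of capillary endothelium, had 3 UMIs in the control and 77 in CKO, 16.2 and 164 CPM (log2 ratio 3.34, interval 1.73 to 5.64), and per endothelial UMI 2.39 (0.79 to 4.70). Plat, encoding tissue plasminogen activator, had 1 UMI in the control and 40 in CKO. Icam2 had 3 and 28 UMIs, and Icam1 227 and 399 CPM against 319 and 460 CPM in marker-free nuclei. The tight-junction gene Cldn5 had 5 UMIs in 4 control nuclei and 105 in 69 CKO nuclei (3.05, interval 1.78 to 4.70), and per endothelial UMI 2.14 (0.87 to 3.79). Per endothelial UMI, Ldb2 had -0.88 (-1.13 to -0.62) and Shank3 -0.76 (-1.20 to -0.30).

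By the interval bound nearest 0, the 12 genes most higher in CKO endothelial nuclei were Reln, S100a6, Scgb1a1, Ndnf, Lpl, Fkbp5, Pcdh7, S100a9, Cryab, Chrm2, Igkc and Lhfpl3. Several were as high in marker-free nuclei of that library: Scgb1a1, the club cell secretory protein gene, had 64.8 and 898 CPM in endothelial and 229 and 1400 CPM in marker-free nuclei, and 188 of its 423 CKO UMIs were in 1 nucleus. S100a9, a neutrophil gene, had 0 and 89.2 CPM and in marker-free nuclei 0.527 and 90.6 CPM. Chrm2, a muscarinic receptor gene, was instead low there, at 0.671 and 1.77 CPM, and had 27.0 CPM in 5 control nuclei and 257 CPM in 56 CKO nuclei (log2 ratio 3.25, interval 1.99 to 4.90). Lhfpl3 had 32.4 and 282 CPM against 9.20 and 11.8 CPM. In CKO, 1 nucleus held 29 of 39 UMIs of Igkc, 32 of 62 of Cryab and 66 of 161 of Ndnf. The most in 1 nucleus was 10 of 165 for Lpl and 7 of 121 for Chrm2.

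The 12 most lower were Lsmem1, Cpm, Ctnnd2, Pik3c2g, Lrp2, Cbr2, Ccdc138, Ptgs2, Matn4, Acoxl, Ank3 and Ifrd1. All 12 were also lower in CKO marker-free nuclei, and in CKO all stood lower in endothelial than in marker-free nuclei. Cpm, encoding carboxypeptidase M, had 1426 and 85.0 CPM in endothelial nuclei (log2 ratio -4.07, interval -4.59 to -3.59), with 66 of the 264 control UMIs in 1 nucleus, and 1252 and 260 CPM in marker-free nuclei. Lrp2, the endocytic receptor megalin, had 875 and 172 CPM, and 917 and 484 CPM in marker-free nuclei. AT2 RNA differed between the endothelial nuclei of the libraries in the same direction, as given above, and its part in these ratios was not tested.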

How the data were processed

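The 4 GEO samples hold 2 joint 10x libraries (RNA and chromatin), 1 per genotype, so groups are libraries and n is 1. The values are raw counts as deposited by the authors, UMIs for 31053 genes and counts in peaks. Per the file headers the matrices come from Cell Ranger ARC 2.0.1; the notes of the submitters on processing name Signac 1.6.0 and Seurat 4.1.0 without a step, and builds without a role. Coordinates are GRCm38: 9277 of 19430 symbols with a RefSeq promoter (47.7%) start at the same base, within 1 base. Peaks were called per library.

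UMIs were summed per library and class and scaled to nuclear-encoded UMIs (CPM), and peak counts to all peak counts of the class. Intervals are exact: from the binomial law conditional on the sum of both counts for log2 ratios, and by Clopper and Pearson for shares. A count of 0 is set to a floor of 3 counts over the group. UMIs and peak counts of 1 nucleus are not independent, so intervals understate the error. A gene is called past a fold of 2 with at least 20 UMIs. The calculation was tested on simulated data. Symbols shared by several gene IDs (35) were summed. Doublets were not removed.

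Genes named are the 9 rule genes, Ptprc and Ptgir; the 12 highest over marker-free nuclei (at least 50 UMIs) in libraries with 50 or more endothelial nuclei; the 12 highest and 12 lowest between libraries (at least 30 UMIs), by the interval bound nearest 0, without unnamed models and mitochondrial genes; members of 43 gene lists with at least 20 UMIs; and 6 peaks per library. Prox1 and Ccl21a, under 20 UMIs, and the genes drawn in the plot of ratios were picked after their values were seen. The members and lists were chosen with earlier results of these data known. In all 13 alternatives were planned and 4 added after seeing the data. Scripts ran in Python 3.11.15 with pandas 2.3.3, matplotlib 3.10.9, scipy 1.17.1 and numpy 2.4.6.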

Additional observations from a re-analysis of the deposited data

Results flagged for a closer look

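For 11 genes of the lists the log2 ratio of the library labelled CKO over the control had opposite signs in endothelial and marker-free nuclei, with both intervals clear of 0. Only list genes with at least 20 UMIs over the endothelial nuclei were searched. The share of all 5485 genes that meet the same condition was not counted. The difference between the classes was not tested, and there is 1 library per genotype. In endothelial nuclei, and then in marker-free nuclei, Slco2a1 had 1.19 against -0.32, Tcf4 0.94 against -0.16, Klf4 0.85 against -0.995, Icam2 1.88 against -2.60 and Lrg1, a leucine-rich glycoprotein gene, 0.88 against -0.11. Gbp4 had -1.68 against 1.94. Icam2 had 3 UMIs in control endothelial and 5 in CKO marker-free nuclei. In leukocyte nuclei the ratios were -0.38 for Slco2a1, 0.51 for Tcf4, -0.84 for Klf4, -0.29 for Icam2, -0.22 for Lrg1 and 0.95 for Gbp4. The other 5 are epithelial genes, lower in CKO endothelial nuclei: Sftpb had -0.41 against 0.34, Lamp3 -0.72 against 0.10, Abca3 -0.81 against 0.11, Etv5 -1.04 against 0.13 and Muc1 -1.10 against 0.23.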

How the results depend on the processing

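Values are shares in percent, numbers of genes or log2 ratios; "over marker-free" gives the 35 endothelial genes in control and then CKO, and the cause of a change was not tested. A 9-gene sum of at least 3 gave a control share of 0.885, general capillary genes at 1.20 and over marker-free 0.69 and 1.67. A sum of at least 6 gave over marker-free 1.12 and 1.91 and T and NK genes at 0.14. At least 3 of the 9 genes gave general capillary 0.37, over marker-free 1.18 and 1.90 and T and NK 0.27. With Ptprc not used the CKO share was 3.25, general capillary 0.83, higher genes 1957, over marker-free 0.64 and 1.51, CKO promoters 1.53, T and NK 1.36 and fibroblast -0.48. Limits of 1000 to 100000 peak counts gave general capillary 0.83 and over marker-free 0.92 and 1.87. Without mixed nuclei the shares were 0.191 and 0.750, general capillary -0.10, aerocyte -0.77, higher and lower genes 197 and 72, over marker-free 2.04 and 2.55, promoters 2.48 and 1.92, and the Tie list -0.0699, leukocyte adhesion -0.0546, haemostasis -0.17, AP-1 0.49, immediate early 0.0276, other epithelial genes 1.34 and Ank3 1.23. A mitochondrial limit of 20% gave promoters at -0.75 in control and 1.85 in CKO. Genes with 10 UMIs gave 1995 higher and 470 lower, and with 50 UMIs 424 and 163. Thinning gave general capillary 0.18, aerocyte 0.58, higher and lower genes 404 and 145 and dendritic -0.0811. Of the alternatives added after seeing the data, 2000 CPM of the rule genes gave general capillary 0.0170, aerocyte 0.54 and over marker-free 1.51 and 1.97. Lists without members over 10 CPM gave general capillary 1.02, over marker-free 7.06 and 6.86, promoters 1.04 and 2.18, AP-1 1.24 and cAMP 0.53. Without the top nucleus aerocyte was 1.5 and T and NK 0.24. Per endothelial UMI general capillary was 0.10, aerocyte -0.17, arterial -0.0375 and BMP -0.29. The median ratio of all genes was 0.36, and 0.24 with Gm42418, AY036118 and Malat1 out of the total. No paired analysis was possible because there is 1 library per genotype. The 43 control nuclei limit what can be seen there.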
